A study of Mus musculus with 4 samples.

Results

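Stretches of DNA among those that stood farthest apart between Treg cells of OX40L-JAG1 mice and Treg cells of PBS mice are followed here along their genes and into effector T cells. They lie at the genes Sox6, Ext1, Igf2bp2, Arrb1, Gpr55, Epb41l2, Dnah2 and P2rx4, which are 8 of the 39720 RefSeq genes with a tested window. The genes were chosen by their Treg methylation, so every Treg difference given for them is a description and carries no test. A locus is the gene with 5 kb on each side, and the 8 loci held 200 of the 314517 windows of 1 kb tested over the genome.

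Whole-genome bisulfite sequencing measured methylation in 4 libraries, 1 for each of the groups OX40L-JAG1 Treg, PBS Treg, OX40L-JAG1 Teff and PBS Teff. All cells came from spleens of NOD mice, which become diabetic through autoimmunity without treatment. Weekly doses of OX40L and Jagged-1 proteins, or of PBS, began at 6 weeks of age and went on for 3 weeks, and the cells were taken at 10 weeks. Treg were sorted as CD4+CD25hi cells and Teff as CD4+CD25- cells, so the sort used a surface receptor that activated effector cells also carry. The labels do not say how many mice gave a library. With 1 library per group no spread between libraries could be measured, and each test below compares a pair of libraries, not conditions.

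Cytosine methylation in mammals sits mainly on CpG, where a cytosine is followed by a guanine, and most CpGs of the genome are methylated. Regulatory elements in use, such as promoters and enhancers, tend to be unmethylated. Treg cells depend on the transcription factor Foxp3, and a set of genes that includes Foxp3 is less methylated in Treg than in other T cells. OX40L binds the costimulatory receptor OX40 on T cells, and Jagged-1 binds Notch receptors.

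The table lists 103584075 reads for OX40L-JAG1 Treg against 131555634 for PBS Treg, and 159291553 for OX40L-JAG1 Teff against 208402911 for PBS Teff. At positions read in all libraries, the median was 9, 10, 11 and 14 reads in the same order. Methylation over these positions was 82.2% in OX40L-JAG1 Treg and 84.9% in PBS Treg. It was 81.6% in OX40L-JAG1 Teff and 85.2% in PBS Teff. The median window differed by -2.14 points between the Treg libraries and by -2.82 points between the Teff libraries, and the values below stand against that shift. Over 6 Treg genes (Foxp3, Ikzf2, Ikzf4, Il2ra, Ctla4 and Tnfrsf18), the median locus was 15.9 points lower in Treg than in Teff of OX40L-JAG1 mice and 17.4 points lower in PBS mice. OX40L-JAG1 minus PBS at these 6 loci had a median of -4.97 points in Treg, from -11.5 to 2.72. In Teff the median was -4.98 points, from -18.3 to -0.79. Loci of 5 B cell genes were at 51.3% to 87.3% in OX40L-JAG1 Treg and at 53.0% to 89.9% in PBS Treg, and their median Treg difference was -1.68 points. Of the 13 genes listed for myeloid, B, NK and CD8 T cells, 11 had a tested window. None of their windows was called in the Treg treatment comparison, where 0.101% of all windows were, so the lack of calls says little. The median Treg difference was -5.34 points over the CD8 T and NK cell genes and -1.18 points over the myeloid genes. In Teff these medians were -5.69 and -3.29 points, and that of the B cell genes was -2.46 points. All 5 pan T cell loci (Cd3e, Cd3d, Cd3g, Lck and Cd4) were higher in OX40L-JAG1 Treg than in PBS Treg, by 1.13 to 12.5 points with a median of 4.56. In Teff their median difference was 6.36 points, with Lck the lowest at -6.48 points, and Cd3e, at 20 points, had a window called higher. Gain or loss of other cell types in the sorted fractions was not tested as a source of the differences below.

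The RefSeq table of GRCm38.p6, the assembly named mm10, held 11 promoters for 6 of the 8 genes and none for Ext1 or Arrb1. None of the listed promoters overlapped the window that stood apart at its gene. The 2 printed here, each the 250 bases before a transcript start on the gene's own strand, hold a CpG read in all 4 libraries and show how far the promoters lie from the shifted DNA. CpGs are in capitals. A CpG occurs in 92.13% of the 32851 promoters of that table, with a median of 6 per promoter.
Gpr55 promoter (chr1:85961056-85961305, minus strand): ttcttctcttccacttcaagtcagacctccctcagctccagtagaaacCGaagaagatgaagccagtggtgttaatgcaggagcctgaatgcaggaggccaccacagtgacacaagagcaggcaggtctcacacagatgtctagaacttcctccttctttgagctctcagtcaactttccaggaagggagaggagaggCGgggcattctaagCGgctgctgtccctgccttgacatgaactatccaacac
Sox6 promoter (chr7:115846141-115846390, minus strand): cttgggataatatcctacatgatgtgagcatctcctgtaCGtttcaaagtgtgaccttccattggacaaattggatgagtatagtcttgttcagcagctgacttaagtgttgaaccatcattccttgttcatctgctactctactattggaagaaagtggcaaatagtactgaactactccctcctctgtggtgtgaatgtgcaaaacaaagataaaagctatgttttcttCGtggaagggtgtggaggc
The Gpr55 promoter holds 3 CpGs, and its start is 7554 bases from the centre of the shifted window. Its CpG at position 85961257 had 0 methylated reads of 8 in OX40L-JAG1 Treg against 0 of 9 in PBS Treg, and 1 of 10 in OX40L-JAG1 Teff against 0 of 18 in PBS Teff. At these depths a count of 0 allows a level of up to 37.5%, 33.3% and 16.7% in the 3 libraries without a methylated read. The Sox6 promoter shown is 1 of 6 listed for that gene, and the most deeply read of those with a CpG read in all 4 libraries. It holds 2 CpGs and starts 371639 bases from its window. At position 115846350, 7 of 9 reads were methylated in OX40L-JAG1 Treg against 6 of 9 in PBS Treg, and 6 of 11 in OX40L-JAG1 Teff against 10 of 11 in PBS Teff. Another Sox6 promoter, from 116038745, holds 9 CpGs, none read in all 4 libraries, and was little methylated. It was at 11.1% of 45 reads in OX40L-JAG1 Treg, 11.8% of 17 in PBS Treg and 2.94% of 34 in PBS Teff, with no reads listed in OX40L-JAG1 Teff.

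The level of a window is the share of methylated reads over the positions that every library covered with 5 reads or more. A window was called in a comparison when Fisher's exact test, two-sided and adjusted by Benjamini-Hochberg over all windows, gave p under 0.05 and the levels differed by at least 20 points. In OX40L-JAG1 Treg minus PBS Treg, 8 of the 200 windows of these loci were called, 1 at each gene, where 0.101% of all windows were called. The 5 that were lower stand beside 0.0814% of all windows, and the 3 that were higher beside 0.0194%. That comparison chose the genes, and nothing is read from the count. The called window of each gene is its lead window. Differences are given with 95% intervals, which cover counting error alone. A level is an average over the cells of a library, so a change in a share of the cells and a partial change in all of them cannot be told apart.

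Methylation was lower in OX40L-JAG1 Treg at 5 lead windows and higher at 3, and the Teff pair, which shares no library with the choice, leaned the same way at all 8. Of all 317 windows called in Treg, 280, or 88.3%, had the same sign in Teff. That was 234 of 256 lower windows (91.4%) and 46 of 61 higher windows (75.4%), beside a median Teff window at -2.82 points. Arrb1 and Gpr55 fell and Epb41l2 and P2rx4 rose in OX40L-JAG1 Teff relative to PBS Teff, so 4 of the 8 lead windows passed the call rule in Teff in the direction seen in Treg. Over the genome, 0.559% of windows were called in Teff, 0.47% lower and 0.0884% higher. Of the windows called in Treg, 69 were called in the same direction in Teff, which is 21.8% of the Treg calls and 3.93% of the 1757 Teff calls. Without the lead windows of the 8 genes, 65 of 309, or 21.0%, were called in both.

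**Figure D1:**
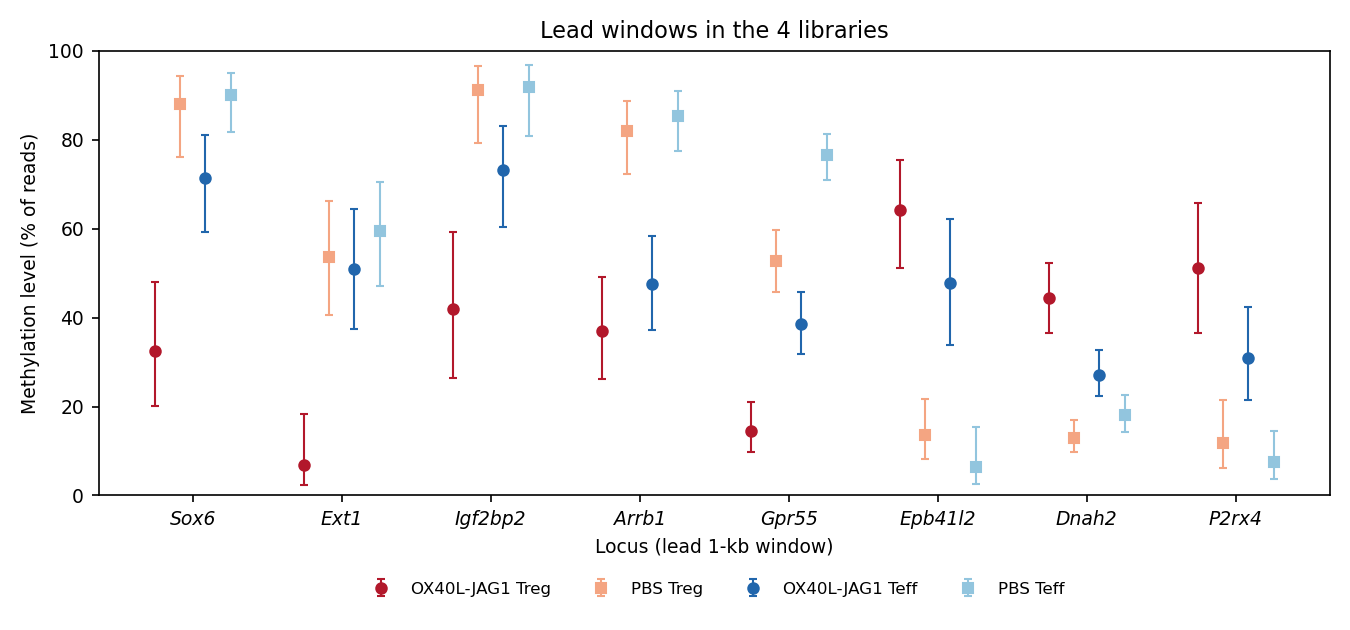
Methylation level in percent of reads at the lead window of each gene, for OX40L-JAG1 Treg, PBS Treg, OX40L-JAG1 Teff and PBS Teff, with 95% Wilson intervals as bars. At Sox6 the OX40L-JAG1 Treg level of 32.5% lies below the other libraries, while at Gpr55 both OX40L-JAG1 levels lie below the PBS level of the same cell type.

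Among the genes that were lower, Gpr55 and Arrb1 encode proteins of receptor signalling. Gpr55 is a G protein-coupled receptor that responds to lysophosphatidylinositol. Its lead window (chr1:85953001-85954000, inside the gene at 85933221 to 85991583) had 9 kept positions and the most reads of the lower windows. The level was 14.5% of 145 reads in OX40L-JAG1 Treg against 52.8% of 199 in PBS Treg, and 38.5% of 179 in OX40L-JAG1 Teff against 76.6% of 256 in PBS Teff. OX40L-JAG1 Treg was lowest and PBS Teff highest. The Treg difference was -38.3 points (95% interval -46.6 to -28.7). The Teff difference was almost the same, -38.0 points (-46.3 to -28.8, Fisher's adjusted p = 5.65e-12). Gpr55 also differed between the cell types within each treatment. Treg stood 24.1 points below Teff in the OX40L-JAG1 pair and 23.8 points below Teff in the PBS pair, and it is the only lead window past the call rule in both pairs. Those comparisons each share a Treg library with the choice of genes and carry no test here.

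Single positions of the Gpr55 window moved together in Treg, with all 9 lower in OX40L-JAG1 Treg, and 7 of 9 lower in OX40L-JAG1 Teff. The deepest position, 85953179, was at 28.0% of 25 reads in OX40L-JAG1 Treg and 58.3% of 48 reads in PBS Treg. The same position was at 55.3% of 38 reads in OX40L-JAG1 Teff and 91.8% of 61 reads in PBS Teff. The exceptions in Teff, positions 85953935 and 85953968 at the higher end of the window, were already at 13.3% and 5.88% in PBS Teff. The next window upward (85954001 to 85955000) had another pattern. OX40L-JAG1 Treg was at 52.5% and PBS Treg at 46.8%, 5.69 points apart. In that window OX40L-JAG1 Teff was at 61.8% and PBS Teff at 82.7%, a difference of -20.8 points (-30.1 to -11.2, Fisher's adjusted p = 0.00324).

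Arrb1 encodes beta-arrestin 1, which desensitises G protein-coupled receptors. Its lead window (chr7:99611001-99612000) is not in the gene, which spans 99535147 to 99606772, but begins 4229 bases past its end, in the flank. No other RefSeq gene of the table overlaps it, and 1 of its 5 positions lies past the 5 kb flank. The level was 36.9% of 65 reads in OX40L-JAG1 Treg against 81.9% of 83 in PBS Treg, and 47.6% of 82 in OX40L-JAG1 Teff against 85.4% of 103 in PBS Teff. Both OX40L-JAG1 libraries lay below both PBS libraries. Between the Treg libraries the difference was -45.0 points (-57.7 to -29.5), and between the Teff libraries -37.9 points (-49.7 to -24.5, Fisher's adjusted p = 2.34e-05). Positions 99611654 and 99611692 had the largest gaps in both cell types. At 99611654 the level was 15.0% of 20 reads in OX40L-JAG1 Treg against 70.6% of 17 in PBS Treg, and 22.2% of 18 in OX40L-JAG1 Teff against 96.2% of 26 in PBS Teff. At the position with most reads, 99611371, it was 75.0%, 96.3%, 69.6% and 92.3% in the same order, a smaller gap in both cell types.

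Sox6, Ext1 and Igf2bp2 were far lower in OX40L-JAG1 Treg and did not pass the call rule in Teff on the fixed windows. Sox6 encodes a SoxD transcription factor, known for roles in cartilage and red blood cell formation. Its lead window (chr7:115474001-115475000) lies inside the gene (115470872 to 116040776) near its lower bound, at the end opposite to the listed transcript starts. The level was 32.5% of 40 reads in OX40L-JAG1 Treg against 88.0% of 50 in PBS Treg, and 71.4% of 63 in OX40L-JAG1 Teff against 90.1% of 81 in PBS Teff. OX40L-JAG1 Treg stood below the other 3 libraries. The Treg difference was -55.5 points (-69.5 to -36.0), and the Teff difference was -18.7 points (-31.7 to -5.87, Fisher's adjusted p = 0.092). The Sox6 window was called in Teff, at -33.7 points (Fisher's adjusted p = 0.0172), when the window grid was shifted by 500 bases, and at -23.5 points (Fisher's adjusted p = 0.015) over positions with at least 5 reads in both Teff libraries. Within the window, 5 positions between 115474301 and 115474429 were at 12.5% to 20% in OX40L-JAG1 Treg and 77.8% to 100% in PBS Treg. Those positions were at 33.3% to 66.7% in OX40L-JAG1 Teff and 76.9% to 100% in PBS Teff. The remaining position, 115474774, was at 88.9%, 84.6%, 100% and 94.7% in the same order of libraries and had no such gap, although it was the deepest of the window.

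Ext1 encodes a glycosyltransferase that elongates heparan sulfate chains. At its lead window (chr15:53104001-53105000, inside the gene at 53068261 to 53346183) the level was 6.82% of 44 reads in OX40L-JAG1 Treg against 53.7% of 54 in PBS Treg, and 51.0% of 49 in OX40L-JAG1 Teff against 59.4% of 64 in PBS Teff. Over the 6 kept positions, which span 242 bases, the other 3 libraries were at intermediate levels and OX40L-JAG1 Treg was nearly unmethylated. The whole window was not, as positions 53104642, 53104740 and 53104741, not read in every library, were at 100% of 6, 5 and 5 reads in OX40L-JAG1 Treg. The Treg difference was -38.7 points over positions with at least 5 reads in both Treg libraries, and -32.0 points with the window grid shifted by 500 bases. On the fixed window Treg differed by -46.9 points (-60.3 to -29.5) and Teff by -8.35 points (-25.9 to 9.79, Fisher's adjusted p = 0.823). All 6 positions were lower in OX40L-JAG1 Treg, and 4 of 6 were lower in OX40L-JAG1 Teff. OX40L-JAG1 Treg stood 44.2 points below OX40L-JAG1 Teff, while PBS Treg stood 5.67 points below PBS Teff.

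Igf2bp2 encodes an RNA-binding protein that binds Igf2 and other mRNAs. Its lead window (chr16:22077001-22078000, inside the gene at 22059009 to 22163299) was at 41.9% of 31 reads in OX40L-JAG1 Treg against 91.1% of 45 in PBS Treg, and 73.2% of 56 in OX40L-JAG1 Teff against 91.8% of 49 in PBS Teff. The order matched that at Sox6, with OX40L-JAG1 Treg lowest and OX40L-JAG1 Teff next. The Treg difference was -49.2 points (-65.6 to -28.2), and the Teff difference was -18.6 points (-32.4 to -3.85, Fisher's adjusted p = 0.204). All 5 positions were lower in the OX40L-JAG1 library of both cell types. At the deepest, 22077749, the level was 25.0% of 8 reads in OX40L-JAG1 Treg against 88.9% of 9 in PBS Treg, and 76.9% of 13 in OX40L-JAG1 Teff against 100% of 14 in PBS Teff.

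Epb41l2, P2rx4 and Dnah2 went the other way. Over the kept positions, which span 218, 90 and 411 bases, their lead windows were little methylated in both PBS libraries. There they were higher in the OX40L-JAG1 library of each cell type. Positions of the P2rx4 and Dnah2 windows not read in every library varied more. In PBS Teff, P2rx4 had 0% of 6 reads at 122734306 and 83.3% of 6 at 122734473. Dnah2 had 0% of 5 reads at 69527408 and 100% of 6 at 69527127 in that library. At Dnah2 the Teff difference was small, 9.10 points, and was not called. Epb41l2 belongs to the protein 4.1 family, which ties membrane proteins to the spectrin and actin cytoskeleton. At its lead window (chr10:25404001-25405000, inside the gene at 25359782 to 25523519) the level was 64.3% of 56 reads in OX40L-JAG1 Treg against 13.5% of 96 in PBS Treg, and 47.7% of 44 in OX40L-JAG1 Teff against 6.45% of 62 in PBS Teff. The window's centre lies 3867 bases upstream of a listed transcript start. The Treg difference was 50.7 points (35.3 to 63.3), and the Teff difference was 41.3 points (24.7 to 56.1, Fisher's adjusted p = 0.000352). All 7 positions were higher in OX40L-JAG1 Treg, and 6 of 7 were higher in OX40L-JAG1 Teff. The exception in Teff, 25404239, had the same level in both Teff libraries. The deepest position, 25404113, was at 88.9% of 9 reads in OX40L-JAG1 Treg against 20% of 15 in PBS Treg, and 83.3% of 6 in OX40L-JAG1 Teff against 11.1% of 9 in PBS Teff.

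P2rx4 encodes an ATP-gated cation channel. Its lead window (chr5:122734001-122735000) begins 4262 bases past the end of that gene, at 122707518 to 122729739, and lies inside the neighbouring gene Camkk2, a calcium and calmodulin dependent kinase kinase at 122718380 to 122779522. The level was 51.2% of 41 reads in OX40L-JAG1 Treg against 11.8% of 68 in PBS Treg, and 31.0% of 71 in OX40L-JAG1 Teff against 7.45% of 94 in PBS Teff. The OX40L-JAG1 library was higher in each cell type. Between the Treg libraries the gap was 39.5 points (21.8 to 55.1), or 21.8 points with the window grid shifted by 500 bases, and between the Teff libraries 23.5 points (11.6 to 35.6, Fisher's adjusted p = 0.0109). The window just below it (122733001 to 122734000) was at 65.3% in OX40L-JAG1 Treg and 49.8% in PBS Treg. It was at 67.0% in OX40L-JAG1 Teff and 46.5% in PBS Teff, a rise of 20.6 points (12.2 to 28.5, Fisher's adjusted p = 0.000605).

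Dnah2 encodes a dynein heavy chain of motile cilia and sperm flagella. Its lead window (chr11:69527001-69528000, inside the gene at 69420807 to 69549108) had 19 positions. The level was 44.3% of 149 reads in OX40L-JAG1 Treg against 12.99% of 331 in PBS Treg, and 27.1% of 280 in OX40L-JAG1 Teff against 18.0% of 338 in PBS Teff. Treg differed by 31.3 points (22.6 to 39.9) and Teff by 9.10 points (2.50 to 15.7, Fisher's adjusted p = 0.128). In each cell type 18 of 19 positions were higher in the OX40L-JAG1 library. The exception in Teff was the last position, 69527695, at 57.1% of 7 reads in OX40L-JAG1 Treg against 13.3% of 15 in PBS Treg, and 14.3% of 7 in OX40L-JAG1 Teff against 72.7% of 11 in PBS Teff.

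**Figure D2:**
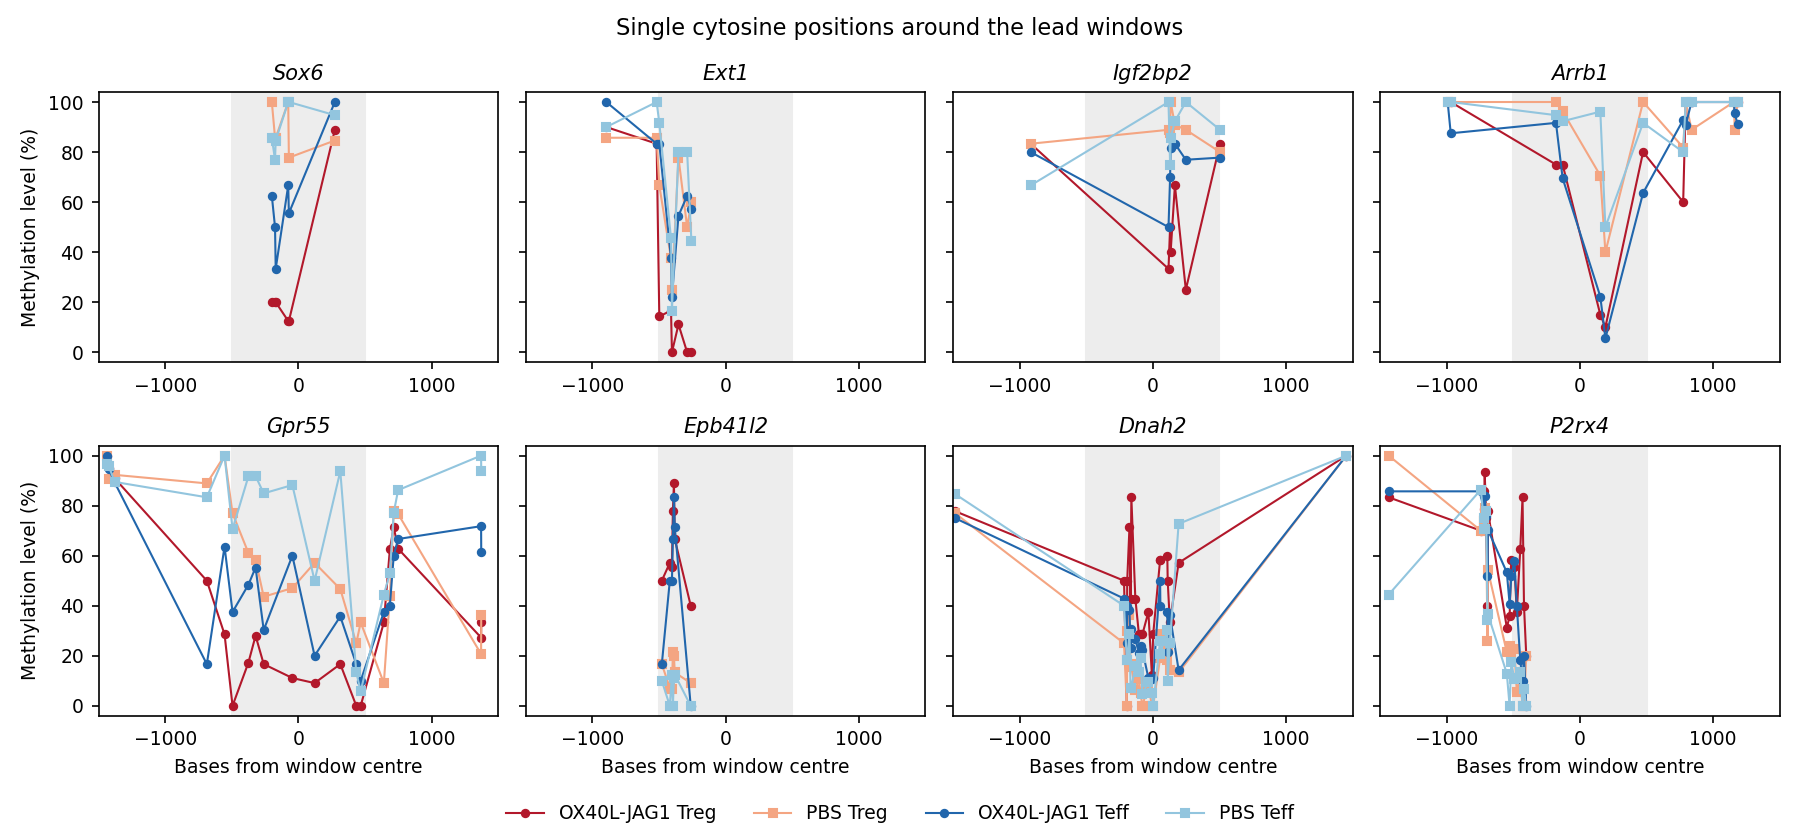
Methylation level in percent at single cytosine positions kept in every library, against the distance in bases from the centre of the lead window, which is shaded. Each line is a library, and within the shaded windows the OX40L-JAG1 Treg line runs mostly below the PBS Treg line in the upper row and at Gpr55, and mostly above it at Epb41l2, Dnah2 and P2rx4.

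The reads behind these values are few and are not all separate molecules. The 63 positions of the 8 lead windows had from 5 to 61 reads per library. Neighbouring positions often had the same number of reads, as at 115474424 and 115474429 of Sox6 with 8, 9, 9 and 11, and 1 read can count at each position it covers. With all read counts divided by 3, Gpr55 was the only lead window still called in Teff (Fisher's adjusted p = 0.0232), and the calls at Arrb1, Epb41l2 and P2rx4 were lost (adjusted p = 1 each). At the deepest position of each lead window, where a read counts once, the sign of the window was kept at 7 of 8 genes in Treg and at 7 of 8 in Teff, with Sox6 the exception in both. The Treg count is favoured by the choice, as each position is part of a window chosen by its Treg difference, and nothing is read from it. Over the whole lead windows the Teff difference was smaller in size than the Treg difference at all 8, an order that the choice by Treg values favours. At the deepest positions it was smaller at 3 of 8. None of the lead windows held a CpG kept on both strands, as was the case for 78.03% of all windows, so no difference between the Treg libraries could be read on the second strand. Single libraries did have other-strand reads at these CpGs, and they did not always match. At 3 CpGs of the Arrb1 window, OX40L-JAG1 Treg had 77.8% of 18 reads methylated on the other strand and 42.5% of 40 on the kept strand. Of these reads, 5 of 18 and 20 of 40 fell on the CpG of 99611692, so the mix of CpGs differed between strands. At 6 CpGs of the Ext1 window, PBS Treg had 21.9% of 32 reads on the other strand and 53.7% of 54 on the kept strand. At 4 CpGs of the Gpr55 window, PBS Treg had 55.2% of 29 reads and 48.9% of 45 on those strands. The part of strand in the Treg differences was not tested. In the Teff pair, 2 positions on the other strand of CpGs in the Sox6 window were at 50% of 10 reads in OX40L-JAG1 Teff, against 78.6% of 14 reads in PBS Teff. In the Arrb1 window 2 such positions were at 91.7% of 12 reads in each Teff library and showed no gap. They pair with 99611321 and 99611371. The CpGs of 99611654 and 99611692, where the Arrb1 gap was largest, had no other-strand reads listed in OX40L-JAG1 Teff and could not be compared.

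**Figure D3:**
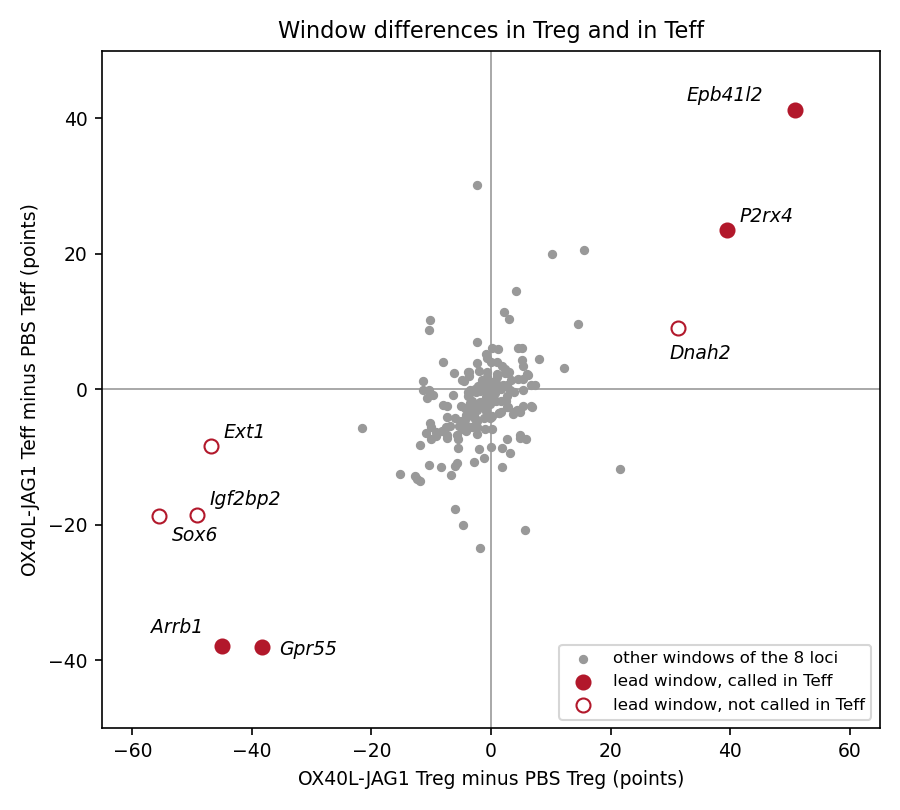
Difference in methylation level in percentage points, OX40L-JAG1 Treg minus PBS Treg on the horizontal axis and OX40L-JAG1 Teff minus PBS Teff on the vertical axis, for the 200 tested windows of the 8 loci. The 8 lead windows lie in the lower left and upper right, with filled marks for the 4 called in Teff, and the other windows gather near the centre.

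The stretches were short against the genes. A stretch was taken as the run around the lead window in which 5 consecutive positions, pooled, differed by at least 20 points in its direction. In Treg the stretches were between 292 and 7244 bases long, with a median of 3135 bases, and were set by few positions. Pooling carries a stretch outward over positions that do not differ by themselves, so its length is an outer bound. The longest was at Sox6, from 115469193 to 115476436, yet it held 11 positions with 2895 bases between the most distant neighbours. Of these, 6 differed by at least 20 points by themselves, 5 of them in the lead window. The next longest, 6435 bases from 25402547 to 25408981 at Epb41l2, held 13 positions, of which 7 differed by at least 20 points by themselves. Those 7 lie within 218 bases, from 25404022 to 25404239, and no position outside the lead window did so. Gpr55 had 15 positions in the 2022 bases from 85952121 to 85954142, and 12 of them differed by themselves, over 1230 bases. Dnah2 had 22 positions in 3507 bases, and the 15 that differed by themselves spanned 411 bases. Ext1 had 10 in 2763 bases, with 6 over 242 bases, and Igf2bp2 had 10 in 3836 bases, with 6 over 1544 bases. P2rx4 had 11 in 292 bases, with 7 over 272 bases, and Arrb1 had 6 in 1162 bases, with 4 over 372 bases. At Arrb1 and P2rx4 the edge of the flank ended the search, and with positions past it allowed the stretches were 1809 and 1979 bases long.

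The same rule applied to the Teff pair found a stretch at 5 of the 8 genes. How often other windows of the genome would meet it was not measured, so this count has no background. Gpr55 had a Teff stretch of 1749 bases from 85952220 to 85953968 that shared 11 of its 14 positions with the 15 of the Treg stretch. P2rx4 shared 10 of 12 positions with the 11 in Treg, Epb41l2 7 of 12 with the 13 in Treg, and Arrb1 4 of 6 with the 6 in Treg. Sox6, whose lead window was not called in Teff, had a Teff stretch of 2295 bases from 115472135 to 115474429. Over its 13 positions with reads in both Teff libraries, the level was 55.1% of 89 reads in OX40L-JAG1 Teff and 85.6% of 132 reads in PBS Teff. No Teff stretch met the rule at Ext1, Igf2bp2 or Dnah2. Over the positions of their Treg stretches read in all libraries, the Ext1 level was 54.5% in OX40L-JAG1 Teff and 65.8% in PBS Teff. That of Igf2bp2 was 74.3% in OX40L-JAG1 Teff and 89.1% in PBS Teff, and that of Dnah2 was 32.0% in OX40L-JAG1 Teff and 23.1% in PBS Teff.

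**Figure D4:**
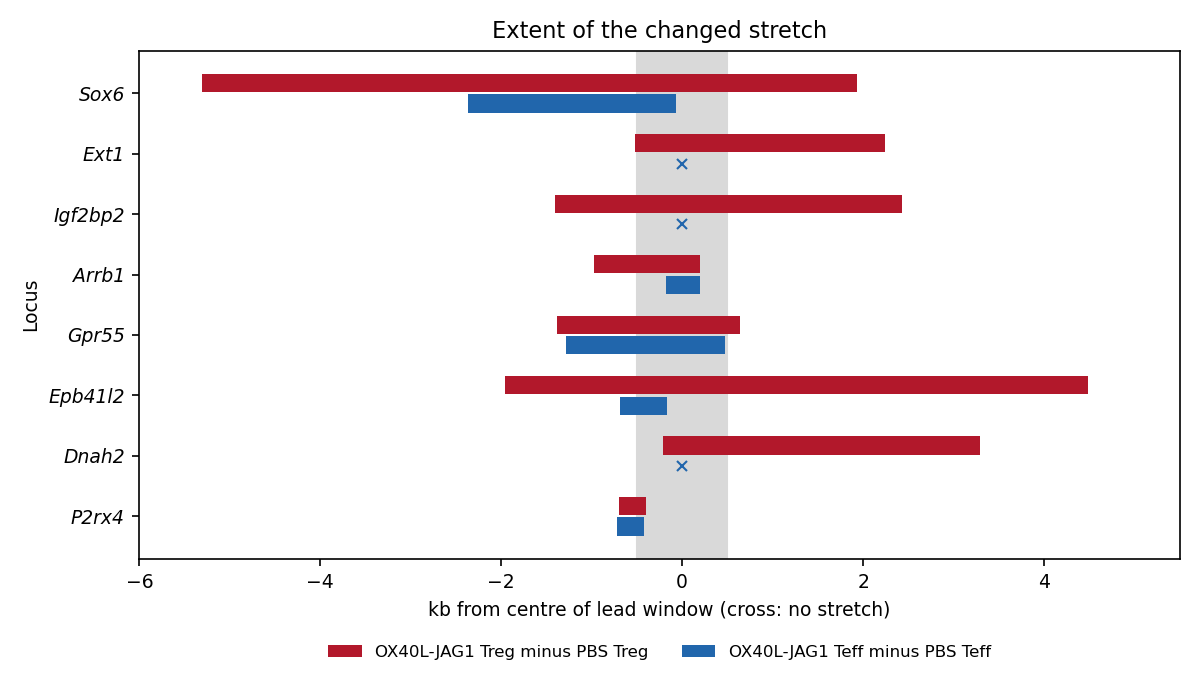
Extent of the shifted stretch in kb from the centre of the lead window, which is shaded, with the Treg comparison above the Teff comparison at each gene and a cross where no stretch met the rule. Treg stretches run from 292 to 7244 bases, an outer bound that includes positions without a difference of their own, and Teff stretches appear at 5 of 8 genes.

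The other 192 windows had a median Treg difference of -1.19 points and a median Teff difference of -1.84 points, beside -2.14 and -2.82 over all windows. Past 20 points in Treg without a call were an Ext1 window (53120001 to 53121000) at -21.7 points and an Epb41l2 window (25366001 to 25367000) at 21.5 points. Their Teff differences were -5.76 and -11.8 points. Past 20 points in Teff without a call were 2 Sox6 windows, at 115785001 with -20.0 points (Fisher's adjusted p = 0.0753) and at 116008001 with -23.5 points (Fisher's adjusted p = 0.0884). Their Treg differences were -4.76 and -1.92 points. In Teff, 3 of these 192, or 1.56%, were called, and 2 of the 3 adjoin the lead windows of Gpr55 and P2rx4. The remaining one is at Ext1 (53266001 to 53267000), with 65.4% in OX40L-JAG1 Treg against 67.8% in PBS Treg, and 78.3% in OX40L-JAG1 Teff against 48.1% in PBS Teff. Its Teff difference was 30.1 points (14.7 to 43.4, Fisher's adjusted p = 0.0139), upward in a gene whose lead window was lower in Treg. With the lead windows, 7 of the 200 windows were called in Teff, 3 lower and 4 higher. The comparisons of Treg with Teff each share a Treg library with the choice of genes, and nothing is read from their counts. In the OX40L-JAG1 pair 3 of 200 windows were called, 2 of them lead windows, where 0.114% of all windows were. In the PBS pair 3 of 200 windows were called, 1 of them a lead window, where 0.279% of all windows were. Outside the lead windows these were an Ext1 window (53259001 to 53260000) with 81.0% in OX40L-JAG1 Treg and 60.4% in OX40L-JAG1 Teff, an Igf2bp2 window (22059001 to 22060000) with 87.2% in PBS Treg and 65.9% in PBS Teff, and the window above the lead at Gpr55.

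**Figure D5:**
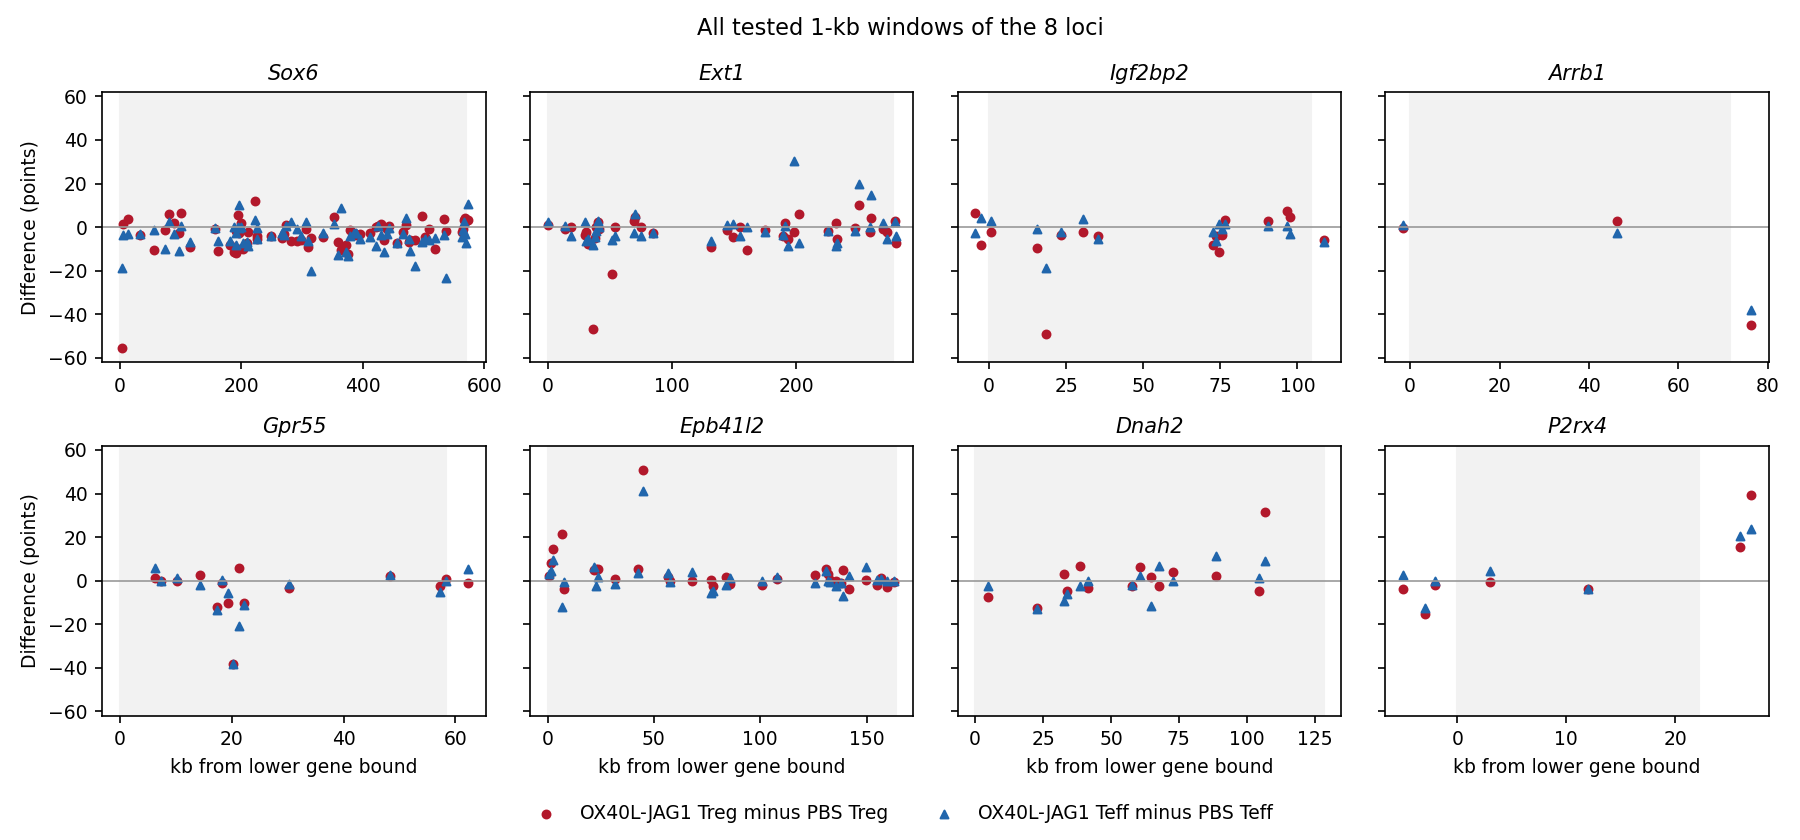
Difference in percentage points for every tested 1-kb window against its distance in kb from the lower bound of the gene, which is shaded, in Treg (circles) and in Teff (triangles). At each gene a single window stands apart in Treg, and the other windows of the 8 loci have medians of -1.19 points in Treg and -1.84 points in Teff.

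Over whole loci the differences were smaller than in the lead windows. The locus of Sox6, with 1196 positions, was at 80.3% in OX40L-JAG1 Treg against 84.5% in PBS Treg. In Teff it was at 80.8% in OX40L-JAG1 mice against 85.6% in PBS mice. Its difference of -4.13 points in Treg was -4.0 without the lead window. At Arrb1, where the lead window held 4 of 46 positions inside the flank, the Treg difference of -6.92 points was -1.07 points without them. Its Teff difference was -8.42 points, and -4.17 points without them. At Dnah2 the Treg difference of 3.96 points was -2.31 points without the lead window, so its sign rests on that window. Epb41l2 and P2rx4 were at 1.68 and 4.72 points in Treg, and at 0.70 and 1.72 points without their lead windows. Ext1, Igf2bp2 and Gpr55 were at -1.20, -2.65 and -1.04 points without theirs. Over 15257 loci with at least 46 positions, the median Treg difference was -2.05 points, with 5% of loci below -5.82 and 5% above 1.67. Arrb1, Dnah2, P2rx4 and Epb41l2 lay outside those bounds with their lead windows, and P2rx4 without them. In Teff the median over these loci was -2.91 points, with 5% below -6.69 and 5% above 1.26, and Arrb1 and P2rx4 lay outside with their lead windows.

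Relatives of the 8 genes, 56 in all from the Sox, exostosin, Igf2bp, arrestin, cannabinoid-type receptor, protein 4.1, axonemal dynein and purinergic families, had 711 tested windows. A single one, at Sox5, was called in Treg, with 75.7% in OX40L-JAG1 Treg and 96.1% in PBS Treg. Sox5 is a SoxD factor like Sox6, and this window did not follow in Teff, with 89.2% in OX40L-JAG1 Teff and 74.7% in PBS Teff. In Teff, 2 windows were called, both higher. At Epb41, the founding protein 4.1 gene of red cell membranes, the level was 88.9% in OX40L-JAG1 Teff and 46.1% in PBS Teff (Fisher's adjusted p = 0.00821), beside 89.1% in OX40L-JAG1 Treg and 67.8% in PBS Treg. At P2ry12, an ADP receptor, it was 52.7% in OX40L-JAG1 Teff and 29.9% in PBS Teff (Fisher's adjusted p = 3.19e-07), with 44.9% in OX40L-JAG1 Treg and 42.4% in PBS Treg. These calls are 0.141% of the windows of the relatives in Treg and 0.281% in Teff, beside 0.101% and 0.559% of all windows.

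Windows were ranked by the interval bound nearest 0 in Treg. The last of the lower genes, Igf2bp2, had its bound at -28.2 points, and the next window, at Atad1, had -28.0 points. The last of the higher genes, P2rx4, had 21.8 points, and the next, at Gm5511, had 21.5 points.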

How the data were processed

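Genomic DNA of 4 sorted T cell fractions was converted with bisulfite and sequenced. Per the submitters' processing notes, the authors used Trimmomatic, Bismark and the mouse build mm10; versions, settings and duplicate removal are not given in the sources used here. Per the file headers, the deposited table gives for each library a count of reads and a count of methylated reads per cytosine position, and a methylation fraction that the authors computed from them. The smallest nonzero count in the deposited table is 5. It lists 25374149 positions, strands apart, of which 4795507 (18.9%) had at least 5 reads in all 4 libraries and were kept.

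Methylated and total reads were summed in fixed 1-kb windows with at least 5 kept positions, without the mitochondrial genome. Two-sided Fisher's exact tests on reads were adjusted by Benjamini-Hochberg over all windows, and the procedure was tested on simulated reads. A call needs an adjusted p under 0.05 and a difference of at least 20 points. Levels have 95% Wilson intervals and differences 95% Newcombe intervals, for counting error only and with every count taken as independent. Gene bounds come from a RefSeq table of GRCm38.p6 that gives no exons, so exon and intron were not told apart, and overlapping flanks were kept. Python 3.11.15 with numpy 2.4.6, pandas 2.3.3, scipy 1.17.1 and numba 0.67.0 was used.

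The 8 genes and all gene lists were chosen with earlier results of these data known. Text values cover the 8 genes, the window of each that was called in Treg with the interval bound farthest from 0, other windows of these loci called in any of the 4 comparisons, relatives with a called treatment window, and the windows ranked just outside. The deepest positions and the promoters shown were chosen after values were seen. Alternatives changed the minimum of reads, the positions kept, the window grid, the number of positions per window, the assumed number of independent reads, centring and the stretch rule.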

Additional observations from a re-analysis of the deposited data

Results flagged for a closer look

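Of the 192 windows outside the lead windows, 62 differed in opposite directions in the Treg pair and the Teff pair, and at 2 of these both differences were past 10 points. These were the Sox6 window from 115667001, with -10.2 points in Treg and 10.3 points in Teff, and the Epb41l2 window from 25366001, with 21.5 and -11.8 points, and neither was called. The windows that follow were each called in at least 1 comparison, and the Dnah2 locus also differed in opposite directions. With 1 library per group these differences between the cell types were not tested. At the Ext1 window from 53266001, OX40L-JAG1 minus PBS was -2.41 points in Treg and 30.1 points in Teff. At the Gpr55 window from 85954001, next to the lead window, it was 5.69 points in Treg and -20.8 points in Teff. At the Igf2bp2 window from 22059001 it was -2.05 points in Treg and 2.65 points in Teff, both small. Over the Dnah2 locus it was 3.96 points in Treg and -2.09 points in Teff, and the Treg value rests on the lead window, as -2.31 points were left without it.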

How the results depend on the processing

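No paired analysis was possible because each group is a single library. The main counts of called windows were 317 in Treg, 1757 in Teff, 879 between PBS Treg and PBS Teff and 357 between OX40L-JAG1 Treg and OX40L-JAG1 Teff, with 7 windows of the 8 loci, 4 of them lead windows, called in Teff. With at least 10 reads in all 4 libraries these became 100, 268, 281, 137, 2 and 1, and only the Gpr55 lead window could still be measured. With all read counts divided by 3, to stand for reads that share molecules, they became 1, 66, 140, 23, 1 and 1. Gpr55 was then the lead window still called in Teff, while Arrb1, Epb41l2 and P2rx4 were not (Fisher's exact test, adjusted p = 1 each). Positions kept in the compared pair alone gave 4016 windows in Teff, 1832 in the PBS pair and 11 windows of the 8 loci in Teff, and at least 3 positions per window gave 3409 in Teff. Gpr55 stayed called in Teff under all 7 settings that could be run (adjusted p from 1.06e-15 to 0.0232). Sox6 became called in Teff with pairwise positions (-23.5 points, Fisher's exact test, adjusted p = 0.015) and with the window grid shifted by 500 bases (-33.7 points, adjusted p = 0.0172). No lead window changed sign in Treg or in Teff under the settings that could be run. The P2rx4 lead window, at 39.5 points in Treg, was at 21.8 points with the shifted grid. The Treg difference of the Epb41l2 locus, 1.68 points, was -0.0247 with at least 10 reads, and that of the Dnah2 locus, 3.96 points, was -2.31 without its lead window. With at least 10 reads the Treg minus Teff calls were 63 lower and 74 higher in the OX40L-JAG1 pair, against 185 and 172 in the main count, and 134 lower and 147 higher in the PBS pair, against 518 and 361. Centring on the median window left 969 lower and 352 higher windows called in Teff, against 1479 and 278 without it. The median stretch in Treg, 3135 bases, was 1958.5 bases with 3 positions pooled, 6498.5 with 9, and 13350 with at least 10 reads, when stretches were found at 3 genes in Treg and 3 in Teff. Asking for 10 points in place of 20 gave Teff stretches at all 8 genes, a count also without a background over the genome. Stretches past the flank and loci without the lead window were tried after seeing the data. The causes of these shifts were not tested.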
